A study of Mus musculus with 5 samples.

Results

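A set of 9 genes of the B cell receptor and B cell identity was followed in mouse liver RNA, namely Cd79a, Cd79b, Ms4a1, Cd22, Cr2, Pou2af1, Blk, Pax5 and Cxcr5. Every probe set that the array annotation assigns to 1 of these 9 genes was taken, which gave 12 of the 45101 probe sets of the array and 9 of the 18194 genes it names singly. The liver samples came from 5 inbred strains, BALB/CByJ, C57BL/6J, RIIIS/J, FVB/NJ and NZW/LacJ, all males aged 10 weeks that had no treatment. Each strain was represented by 1 array, hybridised with RNA pooled from 3 animals, so a strain cannot be told apart from its pool or its array. No difference below has a replicate check, no test was run, and the precision of every value is limited by the small number of arrays. The series was made to follow up a locus that controls hepatic transcript levels, and strains are compared here one against another.

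B cells recognise antigen through a membrane immunoglobulin that has no signalling part of its own. The CD79A and CD79B chains, bound to it as a pair, carry the tyrosine motifs that Src family kinases such as BLK phosphorylate, while CD22 is a sialic acid binding brake and CR2 (CD21) lowers the threshold of activation for antigen tagged by complement. PAX5 and the coactivator OCA-B, the product of Pou2af1, belong to the transcriptional programme of the lineage, and CXCR5 draws B cells into follicles along its ligand CXCL13. Liver holds B cells as a minority among its resident and circulating lymphocytes, and these genes serve as markers of those cells and not of hepatocytes.

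In the FVB/NJ sample, 8 of the 9 genes were far above the other strains, and in the other 4 strains 6 of the 9 stayed under the limit of detection. That limit, called the floor here, was an intensity of 8.22 (3.04 on the log2 scale), which 95% of the readings of 83 sensory receptor probe sets (olfactory, vomeronasal or taste) did not exceed. A lower value was set to the floor before folds were computed, and such a fold is written as "at least". The ninth gene, Pax5, was under the floor in every strain. A gene was called higher in a strain when it stood at least 2-fold above the nearest of the other 4. By this rule 8 of 9 members were called in FVB/NJ, where 5.76% of the 12040 genes detected on 1 array or more were called. Of the 8 members called, 5 passed the floor through the FVB/NJ array alone, as did 3.2% of the detected genes, so for them passing and standing higher are one observation. The other 3, Cd79b, Ms4a1 and Cd22, were above the floor in another strain too. All 3 were called, against 4.13% of the 11655 genes detected in 1 or more of those 4 strains. In bulk RNA, more B cells and more of these RNAs per cell cannot be told apart.

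**Figure D1:**
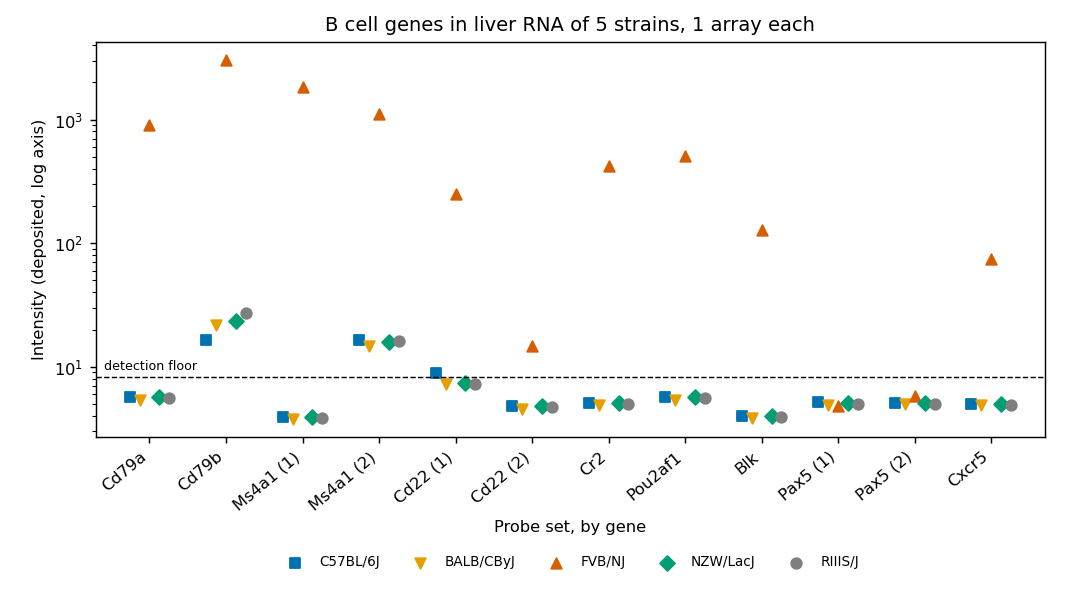
Deposited intensity (log axis) of the 12 member probe sets, with 1 point per strain and array; the dashed line is the floor at 8.22, and genes with 2 probe sets are numbered in the order of the probe set names. FVB/NJ triangles lie above the floor on 10 probe sets, and the other strains lie under it on every probe set apart from those of Cd79b, the second of Ms4a1 and, for C57BL/6J, the first of Cd22.

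Both signalling chains of the receptor and the kinase gene Blk were called higher in FVB/NJ. Cd79b, which encodes the beta chain (1417640_at), had an intensity of 3041 in FVB/NJ, 16.4 in C57BL/6J, 21.7 in BALB/CByJ, 23.5 in NZW/LacJ and 27.2 in RIIIS/J. FVB/NJ was 112-fold above RIIIS/J, the nearest strain, and the 4 low strains lay within 1.67-fold of each other. Cd79b was thus measurable in all 5 livers by the floor used here, although a stricter floor of 28.2, which 99% of those receptor readings did not exceed, lies above all 4 low values. Cd79a, which encodes the alpha chain (1418830_at), read 898 in FVB/NJ, 5.68 in C57BL/6J, 5.35 in BALB/CByJ, 5.68 in NZW/LacJ and 5.59 in RIIIS/J. The 4 low values were under the floor and have no order, and FVB/NJ was at least 109-fold higher. Blk, the gene of the B lymphoid kinase of the Src family (1422775_at), read 128 in FVB/NJ against 3.86 to 3.98 elsewhere, at least 15.5-fold higher.

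The surface proteins of mature B cells showed the same split of 1 strain against 4, with unequal readings between probe sets of a gene. Ms4a1, which encodes CD20, a marker of the lineage from the late precursor to the memory cell, has 2 probe sets. On 1450912_at it read 1099.7 in FVB/NJ, 16.3 in C57BL/6J, 14.8 in BALB/CByJ, 15.8 in NZW/LacJ and 16.0 in RIIIS/J, a 67.3-fold gap. On 1423226_at it read 1827 in FVB/NJ against 3.81 to 3.89 elsewhere, at least 222-fold higher. Both probe sets put FVB/NJ apart, but the 4 other strains were above the floor on 1450912_at and under it on 1423226_at, so whether they held Ms4a1 RNA is not settled by these arrays.

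Cd22, the inhibitory co-receptor gene, also has 2 probe sets, and they differed more. On 1419768_at it read 249 in FVB/NJ, 8.91 in C57BL/6J, 7.23 in BALB/CByJ, 7.34 in NZW/LacJ and 7.27 in RIIIS/J. C57BL/6J passed the floor by a small margin there, and FVB/NJ was 28.0-fold above it. On 1419769_at FVB/NJ read 14.7 and the others 4.58 to 4.80, at least 1.79-fold higher, which misses the 2-fold threshold. Cr2, the complement receptor gene, is covered by 1 probe set (1425289_a_at) that read 417 in FVB/NJ against 4.89 to 5.06 elsewhere, at least 50.8-fold higher. The letters _a_at mark a probe set that recognises more than 1 transcript of a gene. Cxcr5, the follicle homing receptor gene (1422003_at), read 74.2 in FVB/NJ against 4.87 to 5.01, at least 9.03-fold higher, the smallest value among the 8 called genes with the floor at 8.22.

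Of the transcriptional regulators, Pou2af1 was detected in FVB/NJ and Pax5 in no strain. Pou2af1 (1416957_at), the coactivator of octamer-binding factors, read 503 in FVB/NJ, 5.69 in C57BL/6J, 5.37 in BALB/CByJ, 5.64 in NZW/LacJ and 5.55 in RIIIS/J, at least 61.2-fold higher in FVB/NJ. Pax5, the gene of the factor that commits cells to the lineage, read 4.86 in FVB/NJ and 4.95 to 5.15 in the other strains on 1421765_at. Its second probe set, 1454401_at, read 5.78 in FVB/NJ and 4.98 to 5.09 elsewhere. All 10 Pax5 readings were under the floor, which gives no order among the strains and does not show that the transcript was missing.

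Among 5 promoter windows, 3 held a copy of a sequence motif bound by B cell factors, and these 3 windows are shown because they hold a match and their genes stood high in FVB/NJ. RefSeq promoter windows (GRCm38.p6, from 250 bases before to 50 bases after the gene start) were found for 5 members, Cd79a, Cd22, Cr2, Pou2af1 and Pax5. A total of 4 motifs were searched on both strands as exact copies, with N for any base. Capitals mark the matches, none of which overlap, and sites that differ by a letter are not marked. The palindrome CCCNNGGG, the core of the target of early B cell factor (EBF1), was in the Cd22 window 48 bases before the start, and 13.7% of all 32851 windows hold it. The E-box CAGGTG, a target of E proteins such as TCF3, was in the Cd79a, Cd22 and Cr2 windows, and 20.2% of all windows hold it. Neither the octamer ATGCAAAT (1.74% of windows) nor the PU.1 sequence GAGGAAGT (3.20%) was in any of the 5, and the Pou2af1 and Pax5 windows held none of the 4. The Cd22 window is chr7:30878979-30879278 on the minus strand, the Cd79a window chr7:24897247-24897546 on the plus strand and the Cr2 window chr1:195176670-195176969 on the minus strand. A match describes the letters and is not evidence of binding in liver, and a missing match does not show that a window lacks a binding site.
Cd22: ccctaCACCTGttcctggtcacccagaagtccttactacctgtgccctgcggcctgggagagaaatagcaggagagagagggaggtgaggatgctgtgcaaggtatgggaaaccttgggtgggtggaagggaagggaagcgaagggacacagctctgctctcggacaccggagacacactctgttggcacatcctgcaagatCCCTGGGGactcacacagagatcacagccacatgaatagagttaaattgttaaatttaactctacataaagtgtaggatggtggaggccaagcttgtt
Cd79a: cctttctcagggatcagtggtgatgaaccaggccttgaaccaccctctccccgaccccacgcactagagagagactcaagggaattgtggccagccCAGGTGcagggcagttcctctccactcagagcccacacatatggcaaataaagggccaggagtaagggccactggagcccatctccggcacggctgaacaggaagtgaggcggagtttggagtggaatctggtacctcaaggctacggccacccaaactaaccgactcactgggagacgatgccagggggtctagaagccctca
Cr2: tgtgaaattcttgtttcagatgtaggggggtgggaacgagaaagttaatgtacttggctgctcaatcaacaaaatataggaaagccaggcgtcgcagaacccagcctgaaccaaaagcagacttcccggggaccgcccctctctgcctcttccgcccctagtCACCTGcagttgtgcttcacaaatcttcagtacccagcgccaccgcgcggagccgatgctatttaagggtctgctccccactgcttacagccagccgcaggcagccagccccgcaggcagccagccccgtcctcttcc

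The gaps of the members ranged widely in the FVB/NJ sample. On the log2 scale FVB/NJ minus the mean of the other 4 strains, with floored values, was 7.12 for Cd79b, 6.77 for Cd79a, 6.13 for Ms4a1, 5.93 for Pou2af1, 5.67 for Cr2, 4.89 for Cd22, 3.96 for Blk and 3.17 for Cxcr5. The median over the 8 detected members was 5.80, and over all 9, with Pax5 at no difference, 5.67. Under the stricter floor of 28.2 the median over the detected members was 4.02, and bounds against values under the floor are smaller there by the ratio of the floors. Over the 12040 detected genes the same median was -0.02. Among those genes 36 stood at least 32-fold above the nearest strain in FVB/NJ, and 5 of them were Cd79b, Cd79a, Ms4a1, Pou2af1 and Cr2, at places 3, 4, 9, 11 and 19 with bounds counted at their value, which the true folds may exceed. Of these 8 values, 6 rest on the floor in at least 1 strain and are lower bounds.

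**Figure D2:**
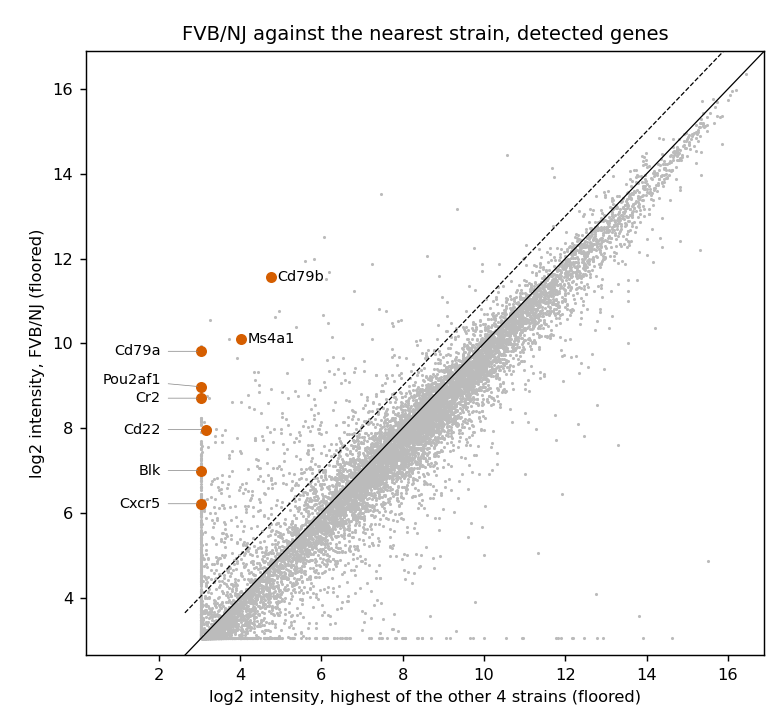
Each grey point is 1 of the 12040 detected genes, with its log2 intensity in FVB/NJ (vertical) against the highest of the other 4 strains (horizontal), both raised to the floor; the solid line marks equality and the dashed line a 2-fold gap. The 8 detected members (orange) lie above the dashed line, Cd79b and Ms4a1 to the right of the floor and the rest at or beside it.

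None of the members set another strain apart. Called higher or lower by 2-fold against the nearest strain were 0 of 9 members in C57BL/6J, 0 in BALB/CByJ, 0 in NZW/LacJ and 0 in RIIIS/J, where 0.905%, 1.22%, 1.47% and 2.66% of detected genes were called. With the FVB/NJ array left out, again 0 of 9 members were called among the 4 remaining strains, beside 7.48% of the genes detected there. Since 6 of the 9 genes had no value above the floor in those strains, a difference there was not detectable for them.

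Other genes of B cell receptor signalling were higher in FVB/NJ in part. Of 25 measured genes of the pathway, 15 were called higher in FVB/NJ and 0 lower, beside 5.76% and 0.532% of detected genes, with a median of 1.72 on the log2 scale. Of the 18 that were above the floor in another strain, 9 were called, beside 4.13% of genes so detected. Ptprc, the gene of the phosphatase CD45, read 2423 in FVB/NJ against 36.9 to 112 elsewhere, a 21.7-fold gap. The adaptor gene Bank1 read 635 against 16.0 to 21.8, and Prkcb, a protein kinase C gene, read 395 against 11.5 to 13.9. The adaptor gene Blnk, which links SYK to calcium signalling, read 137 and was at least 16.7-fold higher. The smallest values were those of Grb2 (304 against 253 to 410), Bcl10 (98.6 against 83.4 to 137) and Pik3cd (99.3 against 114 to 235), none of them called.

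Transcription factors of the lineage were called higher in FVB/NJ for 9 of 16 measured genes, beside 5.76% of detected genes, with 0 lower and a median of 3.02 over the 15 detected. Ikzf1, the Ikaros gene, read 295, at least 35.9-fold above the others, and Spib read 272, at least 33.1-fold above. Mef2c read 563 against 9.93 to 20.6, and Bcl11a was at least 20.1-fold higher. The lower end held Pou2f2, the Oct-2 gene whose protein OCA-B binds, at 12.2 in FVB/NJ and under the floor elsewhere, a bound of 1.48-fold that is not called. Bcl6 (523 against 317 to 1009) and Id3 (711 against 683 to 1057) were within the range of the other strains. Of the 9 factors above the floor in another strain, 4 were called, beside 4.13% of genes so detected.

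Further surface and antigen presentation genes of mature B cells were called in 21 of 25 measured cases, beside 5.76% of detected genes, with a median of 4.48 over the 23 detected. Cd24a read 3945 in FVB/NJ against 30.7 to 48.5, an 81.3-fold gap. Tnfrsf13c, the gene of the BAFF receptor that sustains mature B cells, read 808 against 10.7 to 15.2. H2-Ob, a chain of the class II modulator of B cells, read 480 and was at least 58.4-fold higher, and Ly6d was at least 36.8-fold higher. Gpr183 (at least 2.24-fold, called), Ciita (at least 1.11-fold, not called) and Stap1 (8.28 in FVB/NJ against 13.0 in NZW/LacJ) had the smallest values. Of the 10 above the floor in another strain, 9 were called, beside 4.13% of genes so detected.

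Genes of B cell precursors were mostly not detected, and those of antibody-secreting cells were mixed. Rag1, Rag2, Dntt, Igll1 and Vpreb1 were under the floor in all 5 strains. Il7r was called (20.9 in FVB/NJ, at least 2.54-fold) and Cd93, also an endothelial gene, was not (184 against 76.8 to 98.0). Of 10 plasma cell and germinal centre genes, 2 were called and 4 were not detected, beside 5.76% of detected genes called. The called genes were Jchain, which joins polymeric immunoglobulin, at 1747 against 10.0 to 30.8, and Mzb1 at 140, at least 17.0-fold higher. Of the 5 above the floor in another strain, 1 was called (Jchain), beside 4.13% of genes so detected. Sdc1 (5351 against 5474 to 8748) and Xbp1 (6886 against 5802 to 8309), both also hepatocyte genes, were not called. The immunoglobulin constant region genes Ighm (11859 against 49.2 to 178), Igha (416 against 8.89 to 9.45) and Ighg3 (203 against 37.3 to 40.1) were called in 3 of 3 measured cases. Of 11 constant region genes listed, only these 3 had a probe set assigned to 1 gene. All 3 were above the floor in another strain, and 4.13% of genes so detected were called.

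On the ligand side, Cxcl13 was higher in FVB/NJ together with its receptor gene Cxcr5. It read 515 in FVB/NJ, 9.57 in C57BL/6J, 10.3 in BALB/CByJ, 22.2 in NZW/LacJ and 13.7 in RIIIS/J, a 23.3-fold gap. St6gal1, which encodes the sialyltransferase that makes the glycan CD22 binds, read 1071 in FVB/NJ against 1023 to 1428 and was not called.

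**Figure D3:**
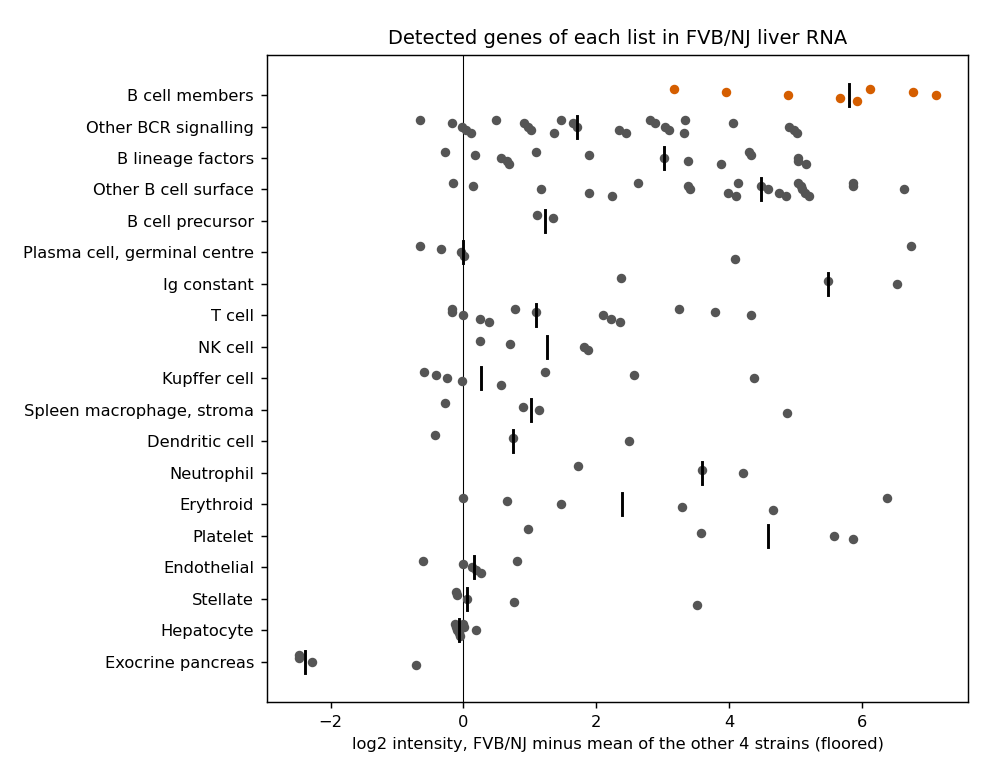
Each point is 1 detected gene, placed at its log2 intensity in FVB/NJ minus the mean of the other 4 strains (floored values), with black bars at the list medians and the members in orange. The member median is 5.80, platelet genes stand at 4.58 and hepatocyte genes at -0.06.

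Some markers of other blood cells were also higher in the FVB/NJ sample, and their part in the values above was not tested. The FVB/NJ counts here and in the next paragraph stand beside 5.76% of detected genes called. Among genes above the floor in another strain, the share called was 4.13%. The summed intensity of the detected members was 6410 in FVB/NJ and 67.0 to 75.5 in the other strains. Sums here and in the next paragraph add deposited values without the floor, so they include readings under it. For 5 of the 8 detected members, every reading added in the other strains was under the floor. T cell markers were called in 7 of 13 cases, with a sum of 653 against 147 to 226. Of the 6 above the floor in another strain, 1 was called, Lat. The other T cell genes called passed the floor through FVB/NJ alone. The T cell receptor complex genes Cd3d and Cd3g were at least 20.1-fold and at least 5.14-fold higher. Cd3e (11.6 against 9.54 to 9.89) and Cd247 (28.8 against 15.7 to 19.3), of the same complex, were above the floor in all 5 strains and not called. Cd2 was at least 13.8-fold and Lat 8.14-fold higher, while Cd4, Cd8a and Zap70 were not called. Zap70 read 74.0 against 51.9 to 127 and was the largest value in the T cell sum of each other strain. NK cell markers were called in 2 of 7 cases (sum 83.2 against 26.1 to 26.5), the granule genes Gzma (at least 3.69-fold) and Nkg7 (at least 3.53-fold), with Ncr1, Klrk1 and Gzmb under the floor. Gzma and Nkg7 passed the floor through FVB/NJ alone. Platelet genes were called in 3 of 5 cases (sum 2077 against 37.7 to 43.2), led by Pf4 at 1568 against 23.4 to 28.7, with Gp9 under the floor. Only Pf4 among the platelet genes was above the floor in another strain. Erythroid genes were called in 4 of 8 cases (sum 5265 against 1115 to 3588), with the largest difference for Slc4a1 (1096 in FVB/NJ). Alas2, the largest value in that sum, read 2861 against 1032 to 3444 and was not called. Epb42 was not called either (7.15 in FVB/NJ, under the floor), and Hba-a1 and Kel were under the floor on the probe sets used. Of the 5 above the floor in another strain, 3 were called. Neutrophil genes were called in 3 of 6 cases (sum 600.5 against 25.2 to 63.2), with Elane, Mpo and Camp under the floor. Of the 2 above the floor in another strain, 2 were called.

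Markers of red pulp macrophages and spleen stroma were called in 2 of 7 cases (sum 2578 against 904 to 1118). The called genes were Vcam1 at 1795 against 18.3 to 169 and Spic at 42.5 against 17.5 to 19.9. Tlx1, Nkx2-5 and Madcam1 were under the floor. Cr1l, not called, read 725 against 860 to 922 and made up most of that sum in the other strains. Dendritic cell markers were called in 1 of 7 cases (sum 108 against 47.9 to 50.2), with Siglech, Flt3, Xcr1 and Cd209a under the floor. The called gene, Itgax, passed the floor through FVB/NJ alone. Kupffer cell markers were called in 2 of 8 cases, Marco and Timd4, with a sum of 4298 against 2433 to 4717. Cd163 (118 against 95.9 to 282), Cd5l (651 against 520 to 1678) and Clec4f (600 against 537 to 1152) were not called. On the log2 scale these lay below the mean of the other 4 strains. Stellate cell markers were called in 1 of 6 cases, Acta2 at 823 against 58.1 to 77.9, with Des under the floor. Of the markers of the labelled tissue, 0 of 8 hepatocyte and 0 of 6 endothelial genes were called, with a hepatocyte sum of 265741 in FVB/NJ against 269853 to 302663. Exocrine pancreas genes, called in 0 of 4 cases in FVB/NJ, had a sum of 38884 in RIIIS/J against 688 to 1276 in the other strains, while the sum of the members in RIIIS/J was 75.5.

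The 10 other genes whose pattern over the 5 strains lay nearest to the mean pattern of the 8 detected members were all called higher in FVB/NJ, which follows from how they were chosen. Likeness was the Euclidean distance between floored log2 deviations from each gene's mean over the 5 strains, and its median over 12032 genes was 4.92. The nearest was Igha, the immunoglobulin alpha constant region gene (distance 0.11), then the platelet chemokine gene Ppbp (0.13), Tbc1d10c (0.14), Gimap3 (0.19), the T cell receptor segment Trbv1 (0.19), Cdr2 (0.23), Ly6d (0.23), Cytip (0.26), Ikzf1 (0.27) and Wdfy4 (0.27). The members themselves lay at 0.20 (Cr2) to 2.04 (Cxcr5) from their own mean. With 4 strains at or near the floor, this distance mainly records the height in FVB/NJ. Apart from Igha and Trbv1, the 10 genes were under the floor in the other 4 strains.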

How the data were processed

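Liver RNA of 5 strains was measured on Mouse430_2 arrays. The deposited values are linear intensity values. Per the submitters' processing notes, the authors used GCOS and GCRMA, in versions and with settings not given in the sources used here. Values under the floor vary little between arrays, and that small spread is no measure of precision. On 29.1% of probe sets at least 2 arrays held exactly the same value. This was also seen far above the floor, as for Ttr (63027 in C57BL/6J, BALB/CByJ and NZW/LacJ), so close agreement is no measure of precision there either. Among the 12 member probe sets, 0 held equal values. Of 45101 probe sets, 34958 had 1 gene by the platform annotation, 932 several and 9211 none, and only the first were used. All 9 member gene identifiers matched the RefSeq gene table.

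Intensities were converted to log2, each gene took its probe set with the highest mean log2 value, and values were floored before differences were taken. Between 10926 and 11310 genes per array passed the floor. Named genes were all members, up to 4 genes with the largest and 3 with the smallest FVB/NJ difference of each list, and the 10 nearest in pattern. Markers under the floor are named beside them to show what was not detected, and some genes the rule allows are left out for length. Cd3e and Cd247 are named as further genes of the T cell receptor complex. The members and lists were chosen with earlier results of these data known. The calling step was tested on simulated data, with shifts placed only in genes well above the floor. Calls against strains under the floor were not part of that test. Python 3.11.15, numpy 2.4.6, pandas 2.3.3 and matplotlib 3.10.9 were used.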

Additional observations from a re-analysis of the deposited data

How the results depend on the processing

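The count of members called higher in FVB/NJ was 8 in the main setting and 7 to 8 in 7 other settings, being 7 when probe sets ending in _s_at, _x_at or _a_at were left out, which removes Cr2. The members apart in another strain stayed at 0 in 7 other settings, and the called genes of receptor signalling, 15 in the main setting, numbered 12 to 16 in 7. The median over detected members, 5.80 in the main setting, was 4.02 under the stricter floor (99% of receptor readings). It was 5.93 without the probe sets ending in those letters and 5.79 after quantile normalisation. With the mean of probe sets, with the median of the other strains as reference and against C57BL/6J alone it was 5.80. With no floor every gene counted as detected, so that median, 6.13, is over all 9 members including Pax5. A higher floor lowers these differences by construction. No paired analysis was possible because no strain had more than 1 array, and no array could be left out within a strain. Signal over background limits the values of the 4 low strains, most of which are under the floor.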
